A study of Drosophila melanogaster with 10 samples.

Results

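The nuclear-encoded subunits of respiratory complex I were examined in sorted Drosophila melanogaster S2 cells. The subunit list held 33 genes, and 26 of them were read by a probe set annotated to that gene alone, among 11982 genes named on the array. A gene with several such probe sets was represented by the one with the highest mean over the 10 arrays, so the choice used signal level and no comparison. The genes without a single-gene probe set were ND-24, ND-49, ND-30, ND-23, ND-MWFE, ND-B15 and ND-AGGG, the last of which had only a probe set shared with another gene. No probe set was named for the subunits encoded by mitochondrial DNA.

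S2 is a line of embryonic origin that resembles haemocytes, the blood cells of the fly. Stable S2 lines had been given CuSO4 to switch on the knockdown of SLIMP, an insect mitochondrial relative of seryl-tRNA synthetase, and live cells stained with a DNA dye had been sorted by cell cycle phase. The 4 groups were SLIMP knockdown, sorted as G2/M (n = 2) or as G1 (n = 2), and control, sorted as G2/M (n = 3) or as G1 (n = 3). Controls were labelled wild-type S2 cells, and the sources used here did not state whether they carried a control construct or received copper. Knockdown libraries were numbered 2 and 3 and control libraries 1 to 3. The G2/M and G1 libraries of 1 label and number are called a culture below. The sources did not say how many lines, clones or separate cultures stood behind the libraries, and each p-value therefore reflects only how much these samples vary, which could be technical variation.

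Complex I, NADH:ubiquinone oxidoreductase, takes electrons from NADH, passes them through a flavin and a chain of iron-sulfur clusters to ubiquinone, and pumps protons across the inner mitochondrial membrane. It is built from a few subunits made inside the mitochondrion and many made from nuclear genes and imported. Its parts are the N module, which oxidises NADH, the Q module, which reduces ubiquinone, and a membrane arm with a proximal and a distal section that pump protons. Subunit roles below are those of the human orthologs unless stated otherwise. All values are log2 probe set signals as deposited, so a difference of 1 is a doubling of signal. Different probe sets respond differently to the same amount of RNA, so levels were not compared between genes.

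The signal of Slimp, the gene targeted by the knockdown, went against the genotype labels. It read 12.53 in G2/M and 12.59 in G1 in the culture labelled knockdown 2, and 8.97 and 8.68 in knockdown 3. In the cultures labelled control 1, 2 and 3 it read 8.90, 9.06 and 12.51 in G2/M, and 8.80, 8.95 and 12.55 in G1. Control 3 and knockdown 2 were thus high and the other 3 cultures low. The genotype is therefore written as labelled, and no direction is drawn from it. The haemocyte-like markers Hml (11.14 to 11.70), eater (10.84 to 11.15) and srp (9.49 to 9.83) were bright in all 10 libraries, as were Pxn and He (10.94 to 12.29), and NimC1 and Sr-CI were dimmer (7.27 to 8.39). Among markers of other cells, the germline gene vas was near the bottom of the scale (4.40 to 4.85), while the germline gene bam read 8.15 to 9.72 and the neuronal gene elav 10.16 to 10.40. As a check of the sort, 7 of 7 measured G2/M genes were higher in G2/M (median difference 1.06), among them ncd, a mitotic motor gene (2.02), and CycB3, a mitotic cyclin gene (1.29). Their median difference was 0.71 in knockdown 2 and 1 to 1.26 in the other 4 cultures. Each of these genes differed less in knockdown 2 and in control 3 than in any other culture. For CycB the differences were 0.30 and 0.12, against 0.67 to 0.79 elsewhere. The 6 measured G1/S genes went both ways (median 0.12), with the replication licensing genes Mcm5 (0.62) and Mcm2 (0.44) called higher in G2/M and PCNA (-0.28) and RnrL (-0.32) called lower. Their median was -0.26 in control 3 and 0.05 to 0.38 in the other cultures. The haemocyte-like markers also moved with phase, with Pxn (0.34) and Hml (0.21) called higher in G2/M and Sr-CI (-0.78), He (-0.33) and NimC1 (-0.29) called lower, while srp and eater were not called. Their part in the results below was not tested.

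The first comparison set G2/M against G1 within each culture. Complex I transcripts were higher in G2/M: 22 of the 26 measured subunit genes rose and none fell (limma with culture as a block, adjusted over all probe sets at 0.05), where 10.3% of the 18769 probe sets were called higher and 9% lower. Complex I probe sets were bright, with mean signals of at least 8.97. Among the 5215 probe sets at or above that mean, a comparison chosen after the data were seen, 20.2% were called higher. The members' median difference was 0.29, against 0.00 over all probe sets and 0.02 over those with a mean of at least 8.97. That floor does not match the probe sets to the members in brightness. In 25 of 26 subunit genes (96.2%) the G2/M library was the higher one in every culture, as it was for 15.7% of all probe sets. Arrays were brought to 1 distribution before deposit, so a change shared by most transcripts would not show. A higher signal in G2/M means a larger share of the library's RNA, and RNA per cell was not measured.

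**Figure D1:**
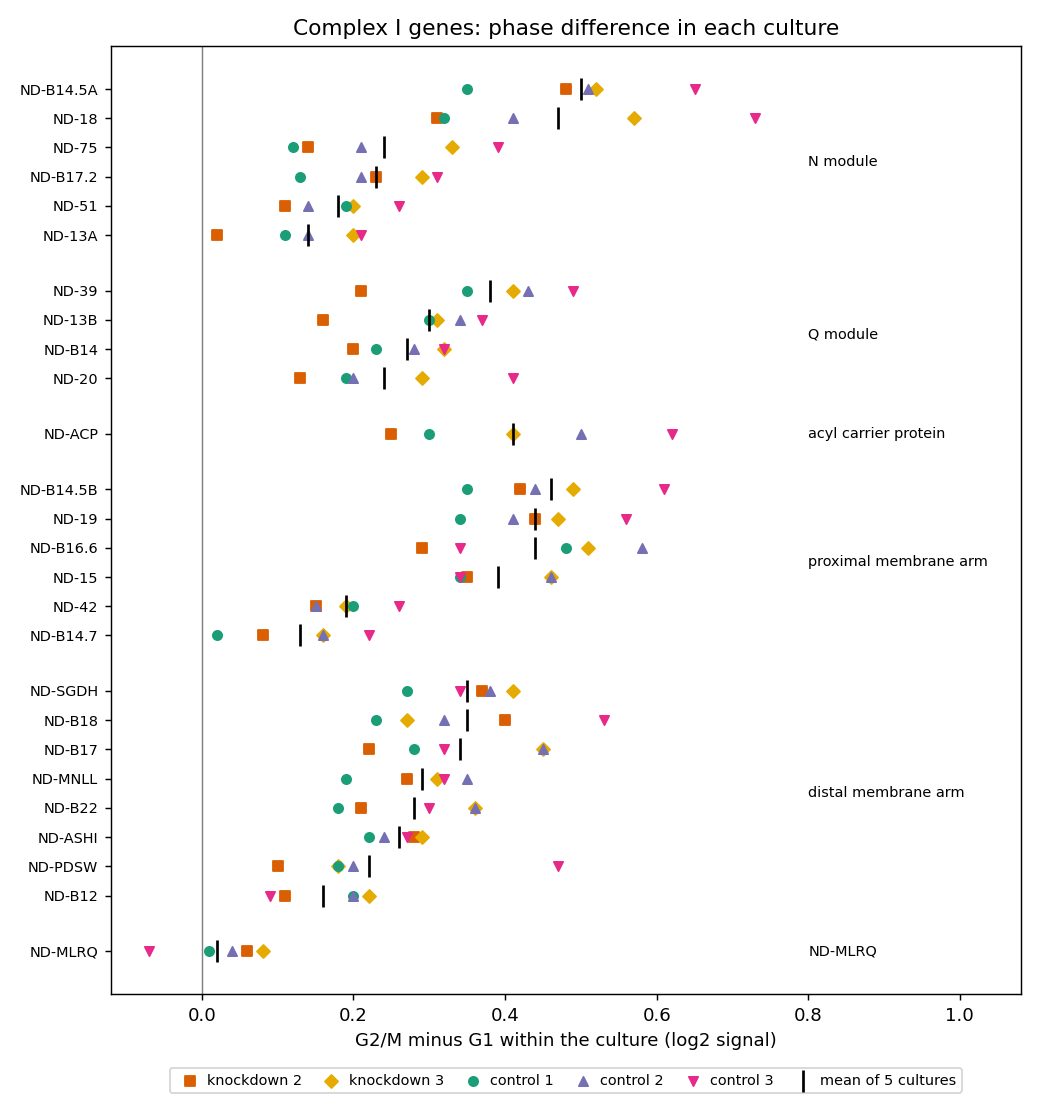
G2/M minus G1 signal (log2) of the 26 measured complex I subunit genes, grouped by the part of the complex, with 1 point for each of the 5 cultures and a bar at their mean. All points but control 3 of ND-MLRQ lie above 0, and the means run from 0.02 for ND-MLRQ to 0.50 for ND-B14.5A.

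In the N module, 5 of 6 measured genes rose (median 0.24). ND-B14.5A, the ortholog of the accessory subunit NDUFA7, read 10.74 and 11.13 in G2/M knockdown 2 and 3 and 11.01, 11.06 and 10.96 in G2/M control 1, 2 and 3, against 10.26 and 10.61 in G1 knockdown and 10.66, 10.55 and 10.31 in G1 control. Every G2/M library lay above every G1 library, and the difference of 0.50 ± 0.06 (SE, 1.42-fold, adjusted p = 0.000851 in limma, n = 5 cultures) was the largest among the 26. ND-18, the ortholog of NDUFS4, an accessory subunit that links the N and Q modules, read 9.66 and 10.04 in G2/M knockdown 2 and 3 and 9.78, 9.78 and 9.84 in G2/M control 1 to 3, against 9.35 and 9.47 in G1 knockdown and 9.46, 9.36 and 9.11 in G1 control. The phases did not overlap, and the difference was 0.47 ± 0.07 (SE, adjusted p = 0.00301 in limma). It varied most of all members between cultures, at 0.31 in knockdown 2 and 0.73 in control 3.

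The catalytic end of the N module was read through ND-51 and ND-75. ND-51, the ortholog of NDUFV1, carries the flavin and the NADH site. It read 11.61 and 11.65 in G2/M knockdown 2 and 3 and 11.69, 11.64 and 11.68 in G2/M control 1 to 3, against 11.50 and 11.45 in G1 knockdown and 11.50, 11.49 and 11.42 in G1 control. These phases did not overlap either, with a difference of 0.18 (adjusted p = 0.0388 in limma). ND-75, the ortholog of NDUFS1 and the largest subunit of the complex, carries several of the iron-sulfur clusters. Its phases overlapped, because it differed far more between cultures than between phases, as described further on. Within cultures it was higher in G2/M by 0.12 to 0.39, with an estimate of 0.24 ± 0.06 (SE, adjusted p = 0.0218 in limma). Without culture in the model, the same estimate had an adjusted p of 0.881 in limma. ND-B17.2, the ortholog of NDUFA12, read 11.01 and 11.38 in G2/M knockdown 2 and 3 and 11.31, 11.27 and 11.08 in G2/M control 1 to 3, against 10.78 and 11.10 in G1 knockdown and 11.18, 11.05 and 10.76 in G1 control. Its phases overlapped, and it rose by 0.23 (adjusted p = 0.0138 in limma). ND-13A, the ortholog of NDUFS6, an iron-sulfur arm subunit that binds zinc, was 0.14 ± 0.05 (SE) higher and was not called (adjusted p = 0.111 in limma).

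All 4 measured Q module genes rose (median 0.28). ND-39, the ortholog of NDUFA9, which binds a pyridine nucleotide, read 10.35 and 10.42 in G2/M knockdown 2 and 3 and 10.55, 10.53 and 10.36 in G2/M control 1 to 3, against 10.14 and 10 in G1 knockdown and 10.21, 10.10 and 9.87 in G1 control. Its lowest G2/M library lay above its highest G1 library, and the difference was 0.38 ± 0.06 (SE, adjusted p = 0.00276 in limma). ND-20, the ortholog of NDUFS7, holds the last iron-sulfur cluster before ubiquinone. It rose by 0.24 (adjusted p = 0.0182 in limma). Its probe set, like those of ND-19, ND-15, ND-B14.7, ND-MNLL and ND-PDSW, was of a kind that can read near-identical transcripts too, so the values of these 6 genes are less certain. ND-13B and ND-B14, the orthologs of the accessory subunits NDUFA5 and NDUFA6, rose by 0.30 and 0.27.

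ND-ACP encodes the mitochondrial acyl carrier protein, which sits in complex I and also serves mitochondrial fatty acid synthesis. It read 11.38 and 11.61 in G2/M knockdown 2 and 3 and 11.57, 11.65 and 11.49 in G2/M control 1 to 3, against 11.13 and 11.20 in G1 knockdown and 11.28, 11.15 and 10.87 in G1 control. The phases did not overlap (difference 0.41 ± 0.07, SE, adjusted p = 0.00336 in limma). Its other 2 probe sets gave 0.34 and 0.26, and both were called.

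The proximal membrane arm had the highest median of the parts with several measured genes, 0.41, and 5 of its 6 genes rose. Its median ranked highest in every culture but control 3, where it was 0.34 against 0.39 in the Q module and 0.35 in the N module. ND-B14.5B, the ortholog of NDUFC2, read 11.11 and 11.37 in G2/M knockdown 2 and 3 and 11.25, 11.28 and 11.22 in G2/M control 1 to 3, against 10.69 and 10.88 in G1 knockdown and 10.90, 10.84 and 10.61 in G1 control. All its G2/M libraries lay above all its G1 libraries, with a difference of 0.46 ± 0.06 (SE, adjusted p = 0.00106 in limma). ND-19, the ortholog of NDUFA8, a subunit of the intermembrane space face, read 10.98 and 11.28 in G2/M knockdown 2 and 3 and 11.18, 11.25 and 11.07 in G2/M control 1 to 3, against 10.55 and 10.81 in G1 knockdown and 10.84, 10.84 and 10.51 in G1 control. It showed the same separation (0.44 ± 0.05, SE, adjusted p = 0.00104 in limma).

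ND-B16.6 is the ortholog of NDUFA13, known in mammals also as GRIM-19, a protein linked to interferon and retinoic acid induced cell death. It read 9.83 and 10.17 in G2/M knockdown 2 and 3 and 10.05, 10.05 and 9.93 in G2/M control 1 to 3, against 9.54 and 9.66 in G1 knockdown and 9.57, 9.46 and 9.59 in G1 control. The phases did not overlap (0.44 ± 0.06, SE, adjusted p = 0.00179 in limma). ND-15, the ortholog of the intermembrane space subunit NDUFS5, read 11.01 and 11.39 in G2/M knockdown 2 and 3 and 11.36, 11.33 and 11.08 in G2/M control 1 to 3, against 10.66 and 10.93 in G1 knockdown and 11.01, 10.87 and 10.74 in G1 control. Here G2/M knockdown 2 only matched the highest G1 library, control 1, while every culture was higher in G2/M by 0.34 to 0.46 (0.39 ± 0.05, SE, adjusted p = 0.00153 in limma). ND-42, the ortholog of NDUFA10, rose by 0.19 (adjusted p = 0.0273 in limma). ND-B14.7, the ortholog of NDUFA11, was 0.13 ± 0.05 (SE) higher and was not called (adjusted p = 0.136 in limma).

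In the distal membrane arm 7 of 8 measured genes rose (median 0.29). ND-SGDH, the ortholog of NDUFB5, read 10.68 and 10.88 in G2/M knockdown 2 and 3 and 10.83, 10.78 and 10.68 in G2/M control 1 to 3, against 10.30 and 10.47 in G1 knockdown and 10.56, 10.40 and 10.33 in G1 control. ND-B17, the ortholog of NDUFB6, read 11.31 and 11.50 in G2/M knockdown 2 and 3 and 11.49, 11.49 and 11.40 in G2/M control 1 to 3, against 11.09 and 11.05 in G1 knockdown and 11.22, 11.05 and 11.08 in G1 control. Neither gene's phases overlapped, and they rose by 0.35 ± 0.05 (SE, adjusted p = 0.00203 in limma) and 0.34 ± 0.06 (SE, adjusted p = 0.004 in limma). The second probe set of ND-B17 gave 0.27 and was called as well.

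ND-B18 rose by 0.35, ND-MNLL by 0.29, ND-B22 by 0.28 and ND-ASHI by 0.26, the orthologs of NDUFB7, NDUFB1, NDUFB9 and NDUFB8. ND-PDSW, the ortholog of NDUFB10, read 10.50 and 10.73 in G2/M knockdown 2 and 3 and 10.75, 10.76 and 10.69 in G2/M control 1 to 3, against 10.40 and 10.55 in G1 knockdown and 10.58, 10.56 and 10.22 in G1 control. Its phases overlapped through G2/M knockdown 2, and it rose by 0.22 ± 0.06 (SE, adjusted p = 0.0405 in limma), with 0.47 in control 3 and 0.10 to 0.20 in the other 4 cultures. ND-B12, the ortholog of NDUFB3, was 0.16 ± 0.05 (SE) higher and just missed the threshold (adjusted p = 0.0544 in limma). Across the complex the members that were called thus stood in every part, and the smallest called differences belonged to ND-51 and ND-42.

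ND-MLRQ had the smallest phase difference of the 26 measured members. Its ortholog NDUFA4 was first described in complex I, and in mammals it is a subunit of complex IV. It read 12.59 and 12.66 in G2/M knockdown 2 and 3 and 12.65, 12.56 and 12.61 in G2/M control 1 to 3, against 12.53 and 12.58 in G1 knockdown and 12.65, 12.52 and 12.67 in G1 control. The difference was 0.02 ± 0.05 (SE, 95% interval -0.09 to 0.14, adjusted p = 0.829 in limma). That interval overlapped those of the other uncalled members, ND-B14.7 (0.13, 0.01 to 0.25), ND-13A (0.14, 0.02 to 0.26) and ND-B12 (0.16, 0.05 to 0.28). ND-MLRQ was also the 1 gene of the 26 that was not higher in G2/M in every culture, with -0.07 in control 3.

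**Figure D2:**
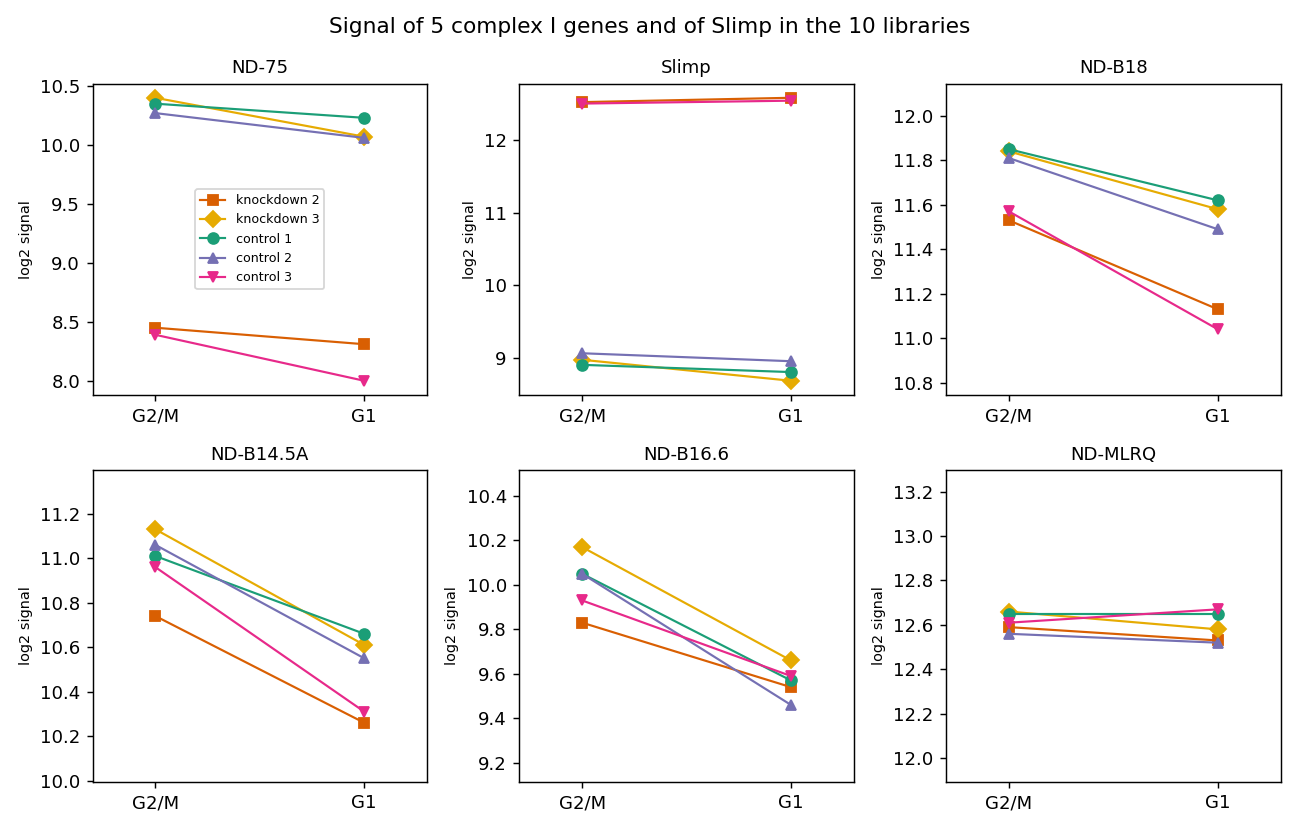
Log2 signal in each of the 10 libraries for ND-75, Slimp, ND-B18, ND-B14.5A, ND-B16.6 and ND-MLRQ, with a line joining the G2/M and G1 libraries of each culture. ND-75 is low where Slimp is high, in knockdown 2 and control 3, while ND-B14.5A and ND-B16.6 show all G2/M libraries above all G1 libraries.

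The phase difference was seen in every culture. The members' median difference was 0.22 in knockdown 2, 0.32 in knockdown 3, 0.22 in control 1, 0.33 in control 2 and 0.34 in control 3, while the median of all probe sets lay between -0.02 and 0.03. It was positive for all 26 genes in 4 cultures and for 25 in control 3. Between 2 libraries of 1 culture there is no replicate, so these medians carry no test. In 15 of 26 genes (57.7%) all 5 G2/M libraries lay above all 5 G1 libraries, against 6.01% of all probe sets and 13% of those with a mean of at least 8.97.

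The number of calls depended on culture being in the model. Without it, 15 of the 26 members were called, all higher (5.63% of all probe sets were called higher in that fit), and ND-75, ND-B14, ND-B17.2, ND-B18, ND-13B, ND-42 and ND-PDSW lost the call. Without the cultures labelled control 3 and knockdown 3, 10 members were called, and the probe sets called in either direction numbered 1586, against 3623 with all cultures. Without control 3 and knockdown 2, which also leaves 3 cultures, 17 members and 3664 probe sets were called.

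Other mitochondrial gene groups moved with complex I. Of the 31 measured genes of complexes II to V, 20 rose and 1 fell (median 0.25), and of the 69 measured genes named as mitochondrial ribosomal proteins, 54 rose and 1 fell (median 0.29). In complex II, the succinate dehydrogenase, SdhD rose by 0.53 and SdhB, the iron-sulfur subunit, by 0.39. UQCR-11 of complex III, the cytochrome bc1 complex, fell by 0.21 (adjusted p = 0.0216 in limma). In complex V, the ATP synthase, 8 of 13 genes rose, with 0.44 for ATPsyndelta, and in complex IV, cytochrome c oxidase, 5 of 8 rose, with 0.33 for COX8. Larger differences than in any complex I gene were found among the ribosomal proteins, such as 0.83 for mRpS14 and 0.74 for mRpL2, while mRpS5 was lower (-0.19). No test of complex I against these groups was made.

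Of the 3 measured complex I assembly factors, CIA30 (0.24, adjusted p = 0.0126 in limma) and sicily (0.19, adjusted p = 0.0459) rose, and Nubpl, an iron-sulfur cluster carrier, gave 0.11 (adjusted p = 0.19). Further genes annotated as complex I subunits or as paralogs of the members were dim or flat, and 0 of 6 were called, with 1 at an unadjusted p under 0.05. Among them ND-B8 read only 4.49 to 4.77 in the 10 libraries and gave 0.12 ± 0.05 (SE). The paralogs ND-20L, ND-24L, ND-51L1, ND-51L2 and ND-B14.5AL gave differences of -0.04 to 0.09.

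**Figure D3:**
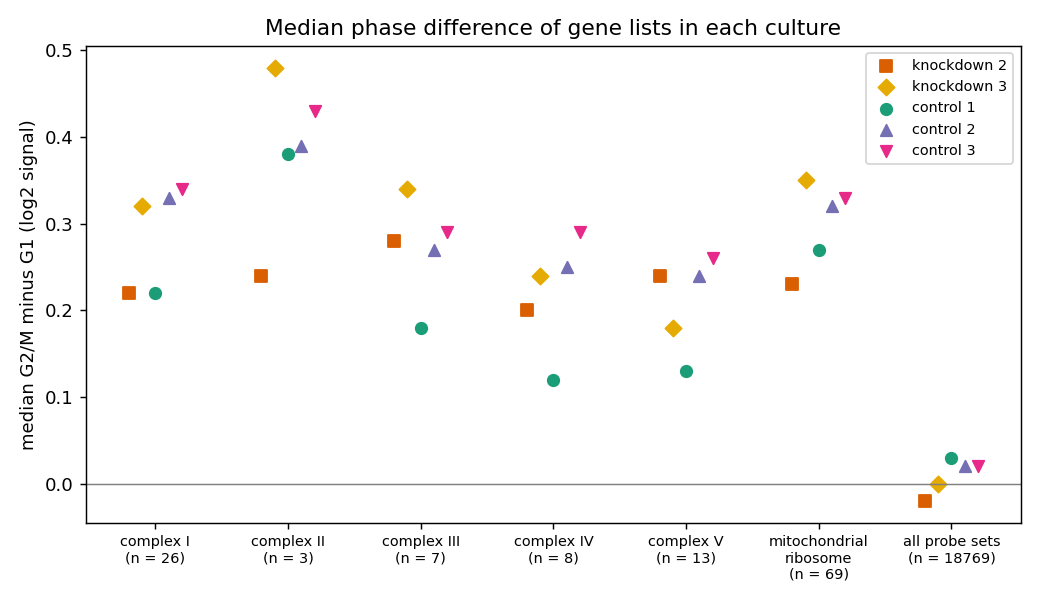
Median G2/M minus G1 difference (log2) in each of the 5 cultures for the 26 complex I members, complexes II (3 genes), III (7), IV (8) and V (13), 69 mitochondrial ribosomal protein genes and all 18769 probe sets. The complex I members lie at 0.22 to 0.34 and all probe sets at -0.02 to 0.03.

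The next comparison asked how the level of complex I transcripts varied between cultures, with both phases of a culture in 1 model. Of the 26 members 4 were called (15.4%), where 11.5% of all probe sets were called, and 865 of the 5215 with a mean of at least 8.97. The members' count was thus near the background, and 1 gene, ND-75, carried a large difference. ND-75 read 8.45 and 10.40 in G2/M knockdown 2 and 3 and 10.35, 10.27 and 8.39 in G2/M control 1 to 3. In G1 it read 8.31 and 10.07 in knockdown 2 and 3 and 10.23, 10.06 and 8.00 in control 1 to 3. Knockdown 2 and control 3 were low in both phases, and the other 3 cultures lay close together.

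The F test over cultures gave ND-75 an F of 263 (adjusted p = 6.52e-06 in limma), the 13th largest of 18769 probe sets. Averaged over the phases, knockdown 2 was lower than knockdown 3 (log2 difference -1.86, 3.62-fold), and control 3 was lower than control 1 and control 2 (-2.10 and -1.97, 4.28-fold and 3.92-fold). Control 2 differed from control 1 by -0.13. The cultures with low ND-75 were those with high Slimp, at 12.51 to 12.59 against 8.68 to 9.06. This is a description of 5 cultures, and what the libraries share beyond these signals was not tested. ND-75 was read by 1 probe set, so no second probe set bears on the difference.

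The other 3 called members differed by much less. ND-B18 read 11.53 and 11.84 in G2/M knockdown 2 and 3 and 11.85, 11.81 and 11.57 in G2/M control 1 to 3, against 11.13 and 11.58 in G1 knockdown and 11.62, 11.49 and 11.04 in G1 control. Its culture means differed by -0.38 between knockdown 2 and knockdown 3 and by -0.42 between control 3 and control 1 (adjusted p = 0.0313 in limma). ND-B14 read 11.52 and 11.92 in G2/M knockdown 2 and 3 and 11.88, 11.84 and 11.59 in G2/M control 1 to 3, against 11.32 and 11.59 in G1 knockdown and 11.65, 11.56 and 11.27 in G1 control. It gave -0.34 and -0.33 for the same pairs of cultures (adjusted p = 0.0321 in limma), and ND-B17.2 gave -0.35 and -0.32 (adjusted p = 0.0389 in limma). In all 3 genes control 3 and knockdown 2 were the low cultures. ND-15, with the fifth smallest p, was not called (adjusted p = 0.0562 in limma). These 3 calls were not firm. Without knockdown 2, without control 1 or without control 3, ND-75 alone was called, and without knockdown 3 or without control 2, ND-B18 was called beside it.

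At the other end, ND-51 had the lowest F among the members (0.135, adjusted p = 0.981 in limma), with culture means of 11.55 to 11.60. ND-75 and ND-51, both part of the NADH-oxidising end of the complex, thus had the largest and the smallest variation between cultures among the measured members.

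Most other members were, like ND-75, lowest in control 3 and knockdown 2, with smaller differences. Averaged over phases, the members' median difference was -0.21 for knockdown 2 against knockdown 3 (23 of 26 lower), -0.18 for control 3 against control 1 (26 of 26 lower) and -0.16 for control 3 against control 2 (24 of 26 lower). The medians of all probe sets for these pairs were 0.01, -0.02 and -0.02, with 9158, 10244 and 10156 of 18769 lower. Control 2 against control 1 gave -0.05, with 22 of 26 members and 9549 of 18769 probe sets lower. Control 3 and knockdown 2 were the cultures with the lowest means for 21 of 26 members (80.8%), for 22.8% of all probe sets, for 87.1% of the genes of complexes II to V and for 68.1% of the mitochondrial ribosomal protein genes. Each pair compares single cultures and carries no test, and most of the differences were not called in the F test.

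Within a phase the extremes were often the same libraries. In G2/M, knockdown 2 was the lowest library for 23 of 26 members (88.5%, against 22.3% of all probe sets) and knockdown 3 the highest for 19 (73.1%, against 15.9%). In G1, control 3 was the lowest for 19 members (73.1%, against 25.8%) and control 1 the highest for 18 (69.2%, against 22.8%). Members share a library and its amplification, so these counts describe libraries and not independent genes.

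**Figure D4:**
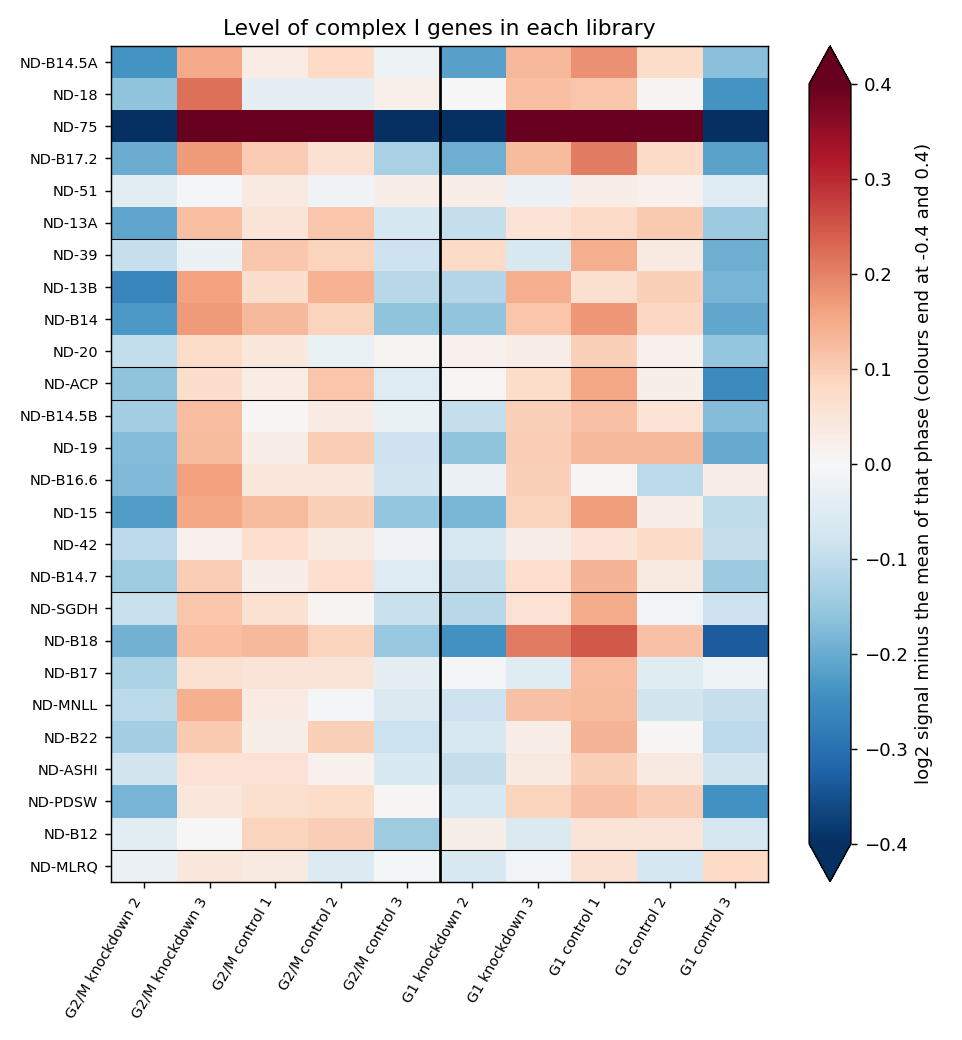
Log2 signal of each measured complex I gene in the 10 libraries, relative to the gene's mean over the 5 libraries of the same phase, with the G2/M libraries left of the G1 libraries. The columns of G2/M knockdown 2 and G1 control 3 are below the mean for most genes, and ND-75, whose colours end at the limits of the scale, is low in knockdown 2 and control 3 of both phases.

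Between libraries labelled SLIMP knockdown and control, no complex I gene was called. In G2/M the members' median difference was -0.04 and in G1 it was -0.03, with 0 of 26 called in either phase (0% of all probe sets) and 0 members at an unadjusted p under 0.05, where 0.874% of probe sets in G2/M and 2.57% in G1 had one. The smallest p-values in G2/M belonged to ND-PDSW (-0.12 ± 0.13, SE) and ND-39 (-0.10 ± 0.12, SE), and in G1 to ND-18 (0.10 ± 0.14, SE, 95% interval -0.21 to 0.41) and ND-MLRQ (-0.06 ± 0.08, SE). All 4 were at adjusted p = 1 in limma. ND-75 averaged 9.43 ± 1.38 (SD, n = 2) in G2/M knockdown and 9.67 ± 1.11 (SD, n = 3) in G2/M control, and 9.19 ± 1.24 (SD, n = 2) in G1 knockdown and 9.43 ± 1.24 (SD, n = 3) in G1 control. In each label 1 culture was low and set these SDs, and the 95% interval of the label difference was -2.30 to 1.82 in both phases. Slimp itself was not called between labels, with differences of 0.59 in G2/M and 0.53 in G1.

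The difference for ND-75 therefore turned on which cultures entered. The subsets below were chosen with the Slimp values known, and they restate the low and high cultures already described, so they are given with no test. Without the cultures labelled control 3 and knockdown 3, ND-75 was lower in knockdown 2 than in control 1 and 2, with a log2 difference of -1.86 in G2/M and -1.84 in G1. Without control 3 and knockdown 2, knockdown 3 differed from control 1 and 2 by 0.09 in G2/M and by -0.08 in G1. Each of these differences rests on 1 culture labelled knockdown.

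The phase difference was also taken within each label. In libraries labelled knockdown the members' median was 0.29, and 0 of 26 were called (0% of all probe sets). An unadjusted p under 0.05 was found for 13 members and 9.19% of all probe sets. In libraries labelled control the median was 0.29 too, and 0 were called (0.9% of all probe sets). Here 18 members and 14.1% of all probe sets had an unadjusted p under 0.05. ND-B14.5B gave 0.45 ± 0.13 (SE, adjusted p = 0.332 in limma) in knockdown and 0.47 ± 0.11 (SE, adjusted p = 0.0852 in limma) in control. With culture as a block, 0 members were called in knockdown (1.68% of all probe sets), where ND-B14.5A came nearest (0.50, adjusted p = 0.0528 in limma), and 14 were called in control, all higher (4.51% of all probe sets called higher).

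That a count passes in one label and not in the other does not show a difference between them. The test of the difference itself, the interaction of label and phase, called 0 of 26 members (0% of all probe sets). No member and 1.77% of all probe sets had an unadjusted p under 0.05. The members' median interaction was -0.01. ND-ACP gave -0.15 ± 0.18 (SE) and ND-PDSW -0.14 ± 0.18 (SE), both at adjusted p = 1 in limma. Blocked by culture, the test called 0 of 26 members too (0% of all probe sets), and these SEs became 0.14 and 0.13. The phase differences of the same genes were 0.41 and 0.22.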

How the data were processed

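Total RNA from about 25000 sorted cells per sample was taken with magnetic beads, and the cDNA was amplified by 15 PCR cycles, labelled with biotin and hybridised to 1 Affymetrix expression array per sample, per the labels' protocols. The deposited values are log2 signals per probe set, and RMA is the tool that the submitters' processing notes name; its version is not given in the sources used here. No further scaling was applied. Array medians lay at 6.554 to 6.608, and the number of arrays limits the precision.

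Of 18952 probe sets, 183 array controls were left out, leaving 18769 with no filter on dim signal. Platform annotation gave 1 symbol to 13647, several to 402 and none to 4720. Current names came from RefSeq Release 6, which matched 13544 and not 103.

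Phase was tested with limma 3.58.1 in R 4.3.3 with culture as a fixed block (residual df 4, prior df 4.7), cultures by an F test in the same model, and labelled groups in a model of 4 groups without a block (residual df 6, prior df 3.09). Benjamini-Hochberg adjustment covered all 18769 probe sets, at 0.05. Deviations from group means correlated within cultures at 0.555, 0.514 and 0.685 (control 1, 2 and 3) and 0.655 (knockdown 2 and 3, equal by construction with 2 libraries per group). That culture pairing is taken from label and number, not stated by the sources. No replicates held identical values (median absolute differences 0.0894 to 0.176). The scripts were tested on simulated data.

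Members and lists were chosen with earlier results of these data known. Values per library were given for the 10 called members with the smallest p in the phase comparison, for the 5 with the smallest p between cultures and for the 2 with the smallest p in each other comparison; ND-51 was added after its values were seen. Alternatives were other filters, normalizations, variance priors, probe sets, blocks and left-out cultures or libraries. Promoter motifs and protein sequences were not analysed here.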

Additional observations from a re-analysis of the deposited data

Results flagged for a closer look

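ND-PDSW had 1 culture apart from the others in its phase difference. G2/M minus G1 was 0.47 (log2) in control 3, and the nearest of the other 4 cultures, control 2, was at 0.20, a gap of 0.734 of the whole range. In control 3 the gene read 10.69 in G2/M and 10.22 in G1, and that G1 value was the lowest of the 10 libraries. Of 27 sets of differences examined in this way (the genes and their median), chance would set about 1 in 20 apart.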

How the results depend on the processing

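Over the 5 cultures, 22 members and 3623 probe sets were called for phase. Leaving out the cultures labelled control 3 and knockdown 3 gave 10 (1586 probe sets), and there ND-B17 was no longer called (0.31, adjusted p = 0.058 in limma); leaving out control 3 and knockdown 2 gave 17 (3664), and leaving out 1 culture at a time gave 16 to 19 (2189 to 3414). The count was 15 with no replicate block (1695), 21 with a random block (3294), 19 with cyclic loess (3771), 23 with median centring (3788) or without the dimmest 25% of probe sets (3918), and 25 with a mean-variance trend (4265); the members' median stayed between 0.25 and 0.30. The genes ND-18, ND-B14.5A, ND-39, ND-ACP, ND-19, ND-B16.6, ND-15, ND-B14.5B and ND-SGDH were called in all 14 of these alternatives, while ND-75, ND-51 and ND-42 were called in 6 and ND-PDSW in 5. The 4 members called between cultures became 9 with a mean-variance trend and 1 to 2 without 1 culture at a time (3297 and 1188 to 1801 probe sets, against 2165), and ND-75 was called in each. In libraries labelled control the phase count of 0 became 14 with the replicate block of culture and 0 to 1 leaving out 1 library at a time; the median was 0.21 to 0.37 there and 0.17 to 0.44 in libraries labelled knockdown. For knockdown against control, leaving out control 3 and knockdown 3 was chosen with the Slimp values known and left 1 knockdown culture. There ND-75 gave -1.86 in G2/M and -1.84 in G1, and ND-18 gave -0.06 in G1. Leaving out 1 library at a time, ND-18 in G1 gave -0.00 (without G1 control replicate 3) to 0.18. Blocking knockdown against control by replicate number gave 0 called and medians of 0.01. The median interaction was 0.06 leaving out control 3 and knockdown 2, where ND-ACP gave 0.01, and -0.15 to 0.11 leaving out 1 library at a time. The cause of these shifts was not tested. With 2 to 3 libraries per group, small differences could not be detected. Slimp and ND-75, which differed widely between cultures, were not called between labels with all libraries in the model.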

Other observations

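The genes on either side of ND-75 on its chromosome were looked at after its values were seen. In RefSeq order, the 4 on each side with named probe sets were sdt, CG2147, sni and Trxr1, and CG1632, Corp, CG15343 and CG1636. None of these 8 was called between cultures (adjusted p of 0.187 to 0.833 in limma). CG1632, Corp and CG15343 read only 5.58 to 6.37, below the array medians, so a fall like that of ND-75 could hardly show in them. Trxr1, the thioredoxin reductase gene next to ND-75, had culture means of 12.54 to 12.72, in a range far narrower than the 8.19 to 10.29 of ND-75.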
